A study of Mus musculus with 4 samples.

Results

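Podosomes are short-lived adhesions with which macrophages and osteoclasts hold on to a surface. Each has a core of branched actin, built by the Arp2/3 complex under WASP and cortactin, and a ring of integrins with the adaptors talin, paxillin and vinculin. In a resorbing osteoclast podosomes condense into the sealing zone, an actin-rich belt that closes off the bone surface under the cell, and Src family kinases, Pyk2 and activators of Rac control how they assemble and turn over. The 10 podosome and sealing zone genes described here were taken by name from the table of 34745 genes, and all 10 were found. They are the signalling genes Src, Ptk2b, Vav3 and Dock5, the actin core genes Cttn, Was and Wipf1, and the adhesion adaptor and scaffold genes Tln1, Pxn and Sh3pxd2a.

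RNA was sequenced from bone marrow derived monocyte/macrophages (BMMs) of 8-week-old wild-type male C57BL/6 mice. The cells were kept without serum for 12 h and then cultured for 24 h in complete medium with 100 ng/mL RANKL, the cytokine that drives osteoclast formation, plus either dimethyl itaconate (DI, a membrane-permeable ester of the macrophage metabolite itaconate) or DMSO, its vehicle. There were 2 libraries in each group, and both groups received RANKL, so the comparison is of DI with vehicle during RANKL treatment, without cells free of RANKL. The labels give the dose of DI as 20 mM, whereas the study's methods give the same figure in μM. The labels do not say whether replicates are separate cultures or mice, so the p-values measure the spread between these libraries, which may be technical.

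The libraries held 16085692 to 19403480 counts, of which the 10 genes took 0.242% and 0.235% in the DI libraries and 0.267% and 0.263% in the DMSO libraries. All 10 passed the filter on low counts. The cells were checked against marker lists. Csf1r, the M-CSF receptor that defines macrophages, lay between 1284 and 1410 CPM (counts scaled to library size with TMM factors) in all 4 libraries, and of 8 macrophage markers 5 were higher and 1 was lower with DI, their summed level being 28714 to 29514 CPM with DI against 22500 to 23379 CPM with DMSO. That sum is mostly Lyz2, and without it the other 7 summed to 5728 to 5942 CPM with DI and 4870.0 to 5090.3 CPM with DMSO. Of 10 osteoclast markers, 8 were tested, 2 were higher (Atp6v0d2 and Itgb3) and 5 were lower (Acp5, Ctsk, Mmp9, Ocstamp and Nfatc1). Their summed level was 714 to 731 CPM with DI and 741 to 764 CPM with DMSO, a sum led by Atp6v0d2, at 509 and 509 CPM with DI and 427 and 418 CPM with DMSO. Without Atp6v0d2 the other 9 summed to 205 to 222 CPM with DI and 323 to 337 CPM with DMSO. Among them Mmp9 and Ocstamp had log2 fold changes of -1.64 and -2.52 in the edgeR fit. Calcr, the calcitonin receptor of mature osteoclasts, had no count and Oscar lay at or under 0.240 CPM. In bulk RNA, fewer cells of a type and less RNA per cell cannot be told apart, and the part of cell composition in the results below was not tested.

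The 10 genes did not move together. Dock5, Cttn, Src and Sh3pxd2a were lower with DI, by 30.6% to 40.8%, Ptk2b was 13.5% higher, and Tln1, Was, Wipf1, Vav3 and Pxn had changes of -0.04 to 0.07 on the log2 scale that did not pass the test. In all, 5 of the 10 genes passed an adjusted p of 0.05 in edgeR's quasi-likelihood test, 4 lower and 1 higher. Over all 12590 tested genes, 14.8% passed, 7.7% lower and 7.14% higher. In 5 of the 10 genes the CPM values of the 2 groups did not overlap, as in 58.6% of all tested genes. The median log2 fold change was -0.03 over the 10 genes and 0.00 over all tested genes. Of all tested genes, 6.67% were lower with DI by at least as much as Sh3pxd2a, whose fall was the smallest called among the 10 genes.

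**Figure D1:**
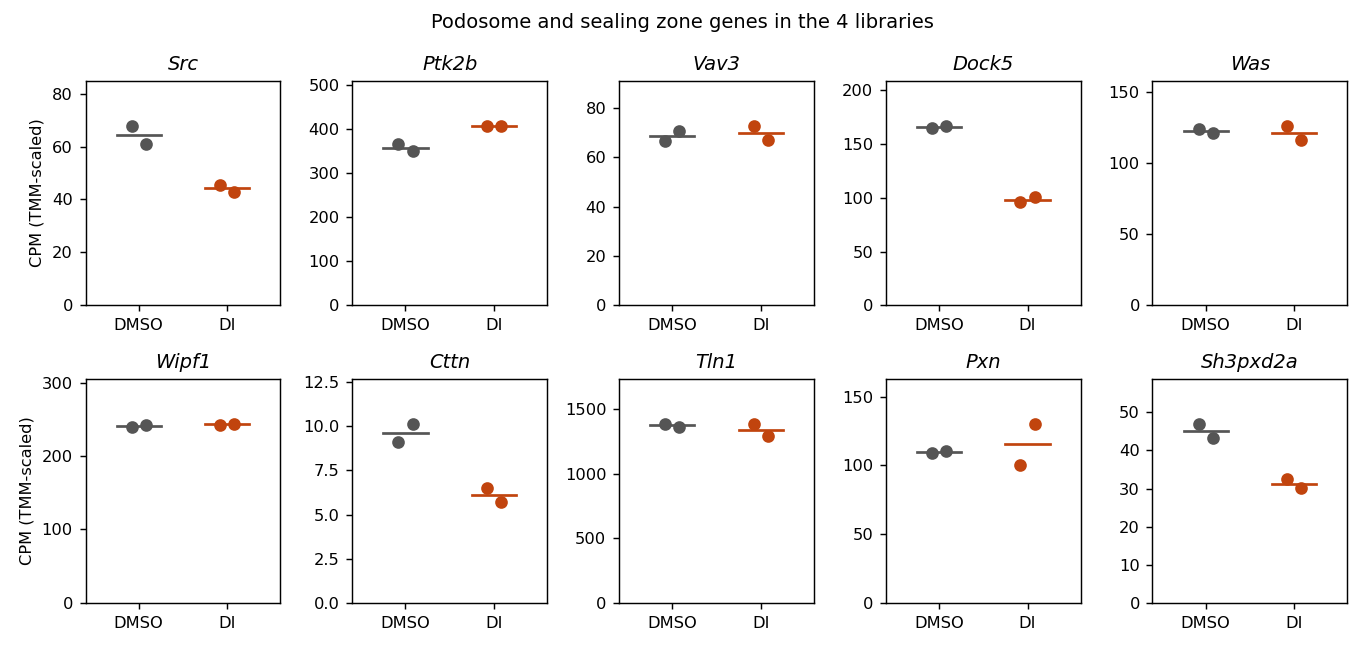
CPM (linear axes from 0) of each of the 10 genes in the 2 DI and 2 DMSO libraries, each point being a library and each line the mean of its group. The DI points of Dock5, Cttn, Src and Sh3pxd2a lie below both DMSO points, those of Ptk2b lie above, and the points of the other 5 genes overlap.

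**Figure D2:**
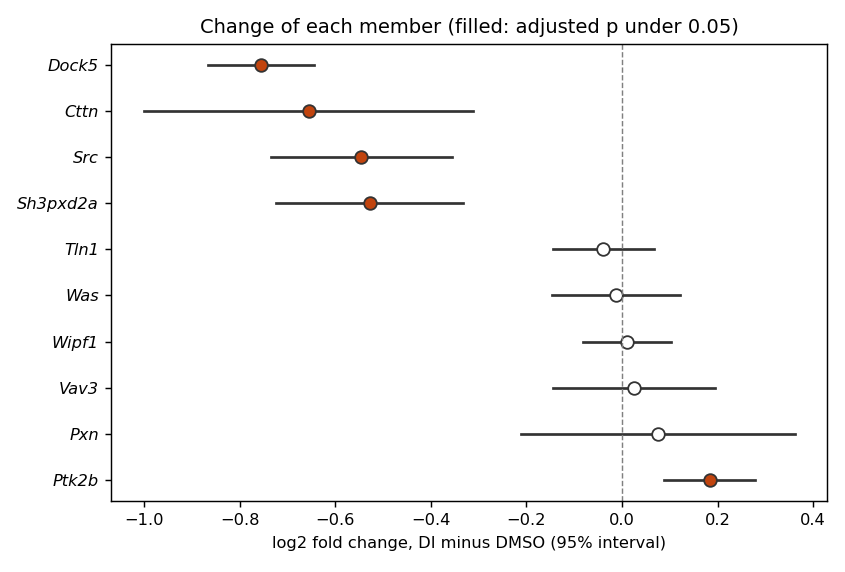
Log2 fold change of each gene, DI minus DMSO, with its 95% interval from edgeR's fit to all 4 libraries; filled points passed an adjusted p of 0.05. The intervals of Dock5, Cttn, Src and Sh3pxd2a end between -0.64 and -0.31 on their upper side, and that of Ptk2b starts at 0.09.

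Dock5 encodes an exchange factor that loads the GTPase Rac with GTP and that osteoclasts need to form a sealing zone. The gene (ENSMUSG00000044447) occupies chr14:67751928-67933572 in GRCm38, as listed in the deposited table. It measured 96.1 and 100.5 CPM in the DI libraries and 165 and 167 CPM in the DMSO libraries. Both DI values thus lay well below both DMSO values, and the replicates of each group were close together. The log2 fold change was -0.76 (SE 0.045, 95% interval -0.87 to -0.64), with an adjusted p of 6.48e-04 from edgeR's quasi-likelihood test. These values rest on 1649 and 1884 counts with DI and 3072 and 2781 with DMSO.

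Src encodes the tyrosine kinase that phosphorylates podosome proteins and whose loss in mice leaves osteoclasts unable to resorb bone. The gene (ENSMUSG00000027646, chr2:157418444-157471862) measured 45.4 and 42.9 CPM with DI and 67.8 and 61.1 CPM with DMSO. The DI libraries were again both below the DMSO libraries, with counts of 779 and 805 against 1263 and 1017. Src fell by 0.55 on the log2 scale (SE 0.077, 95% interval -0.73 to -0.36, edgeR adjusted p = 0.00813). The calls of Dock5 and Src held under each of the 13 alternative settings tried, with log2 fold changes of -0.86 to -0.72 and -0.65 to -0.47.

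A promoter window of Src is shown beside that of Was, an X-linked gene of blood cells. The pair sets the sequence before a transcript start of a member that fell beside that of a member that did not pass the test. Both are the 250 bases before a RefSeq transcript start in GRCm38.p6, which the RefSeq table gave for 5 of the 10 genes (Src, Was, Wipf1, Vav3 and Tln1). The capitals mark exact matches on either strand to the GC box letters GGGCGG, the NFAT core letters GGAAA and the PU.1 letters GAGGAAG, and no marked match overlaps another. The Src window is chr2:157424043-157424292 on the plus strand and the Was window is chrX:8090492-8090741 on the minus strand. The Src window lies inside the gene as listed, which starts at 157418444, so it precedes an internal transcript start and not the outermost.
Src: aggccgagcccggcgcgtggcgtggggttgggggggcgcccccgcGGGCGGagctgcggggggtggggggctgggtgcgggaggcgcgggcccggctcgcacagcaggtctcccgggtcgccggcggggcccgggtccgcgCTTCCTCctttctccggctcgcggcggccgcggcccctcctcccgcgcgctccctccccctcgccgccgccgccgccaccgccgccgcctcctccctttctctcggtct
Was: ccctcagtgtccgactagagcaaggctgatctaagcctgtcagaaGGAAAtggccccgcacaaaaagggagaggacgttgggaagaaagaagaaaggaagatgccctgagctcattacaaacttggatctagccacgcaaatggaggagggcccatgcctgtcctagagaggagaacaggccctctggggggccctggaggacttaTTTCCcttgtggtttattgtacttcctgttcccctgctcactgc
The Src window was 82.8% G and C, with more in only 0.390% of the 32851 promoter windows of the same length, whose median was 52.4%. It held 1 GC box, present in 32.7% of all windows, and 1 PU.1 match on the minus strand, present in 10.6%, and no NFAT core, which 55.6% of windows hold. The Was window was 53.6% G and C and held 1 NFAT core match on each strand and neither of the others. Neither window held the AP-1 letters TGANTCA or the antioxidant response element letters TGACNNNGC, which 6.75% and 10.2% of windows hold. Windows of the other members that did not pass the test varied. Those of Wipf1 were 75.6%, 44.8% and 38.8% G and C, those of Vav3 73.2%, 78.4% and 42.4%, and that of Tln1 55.6%. GC box matches stood in the Wipf1 window at 75.6% and the Vav3 windows at 73.2% and 78.4%. The Wipf1 window at 38.8% held a PU.1 match. NFAT core matches stood in the Wipf1 windows at 44.8% and 38.8% and in the Vav3 window at 42.4%. That Vav3 window also held the AP-1 and antioxidant response element letters. The Tln1 window held none of these letters. The contrast between Src and Was thus depends on the windows shown. A match, or its absence, describes the letters of its own window only.

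Ptk2b encodes Pyk2, the relative of focal adhesion kinase that is abundant in osteoclasts and acts with Src downstream of integrins. The gene (ENSMUSG00000059456, chr14:66153257-66281052) measured 406 and 405 CPM with DI and 365 and 349.8 CPM with DMSO. It was thus the member whose DI libraries were both above the DMSO libraries. Its log2 fold change was 0.18 (SE 0.039, 95% interval 0.09 to 0.28, edgeR adjusted p = 0.0302). The call was lost without DI replicate 1 (edgeR adjusted p = 0.0894), DI replicate 2 (0.0852) or DMSO replicate 2 (0.101), and when libraries were scaled by their totals alone (log2 fold change 0.08, edgeR adjusted p = 0.208). Scaling by totals alone moved the middle of all 12590 changes to a log2 value of -0.10, so the value of Ptk2b lay above that median on either scale.

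Vav3, an exchange factor that acts below integrins and the M-CSF receptor in osteoclasts, completes the signalling genes. The gene (ENSMUSG00000033721, chr3:109340653-109685698) measured 72.8 and 67.1 CPM with DI and 66.8 and 70.8 CPM with DMSO, so the groups overlapped. Its log2 fold change was 0.02 (95% interval -0.14 to 0.19, edgeR adjusted p = 0.856), an interval that does not reach the values of Dock5 or Src.

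Cttn encodes cortactin, which binds the Arp2/3 complex and steadies branched actin in the podosome core. The gene (ENSMUSG00000031078, chr7:144435733-144471009) was the least abundant member, at 6.53 and 5.71 CPM with DI and 9.13 and 10.1 CPM with DMSO. Both DI values were below both DMSO values, on counts of only 112 and 107 against 170 and 169. The log2 fold change was -0.66 (SE 0.14, 95% interval -0.9999 to -0.31, edgeR adjusted p = 0.0310). The call was lost without DI replicate 2 (log2 fold change -0.56, edgeR adjusted p = 0.105), DMSO replicate 1 (-0.73, 0.0747) or DMSO replicate 2 (-0.58, 0.135), and in DESeq2's Wald test (adjusted p = 0.0689).

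The other limit on Cttn is its low level, since fibroblasts and other stromal cells also express cortactin. Of 8 stromal markers 5 were tested and none was called. Their summed level was 41.6 to 43.6 CPM with DI and 44.7 to 51.7 CPM with DMSO, led by the collagen gene Col1a1 at 18.5 to 22.3 CPM, while Lum had no count. The groups of this sum did not overlap, and its part in the result for Cttn was not tested. A transcript of the predicted gene Gm29787 matched 25.9% of the longest Cttn transcript at up to 96.1% identity, so some Cttn reads may be ambiguous.

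Was and Wipf1 encode WASP, which switches on the Arp2/3 complex, and WIP, which binds WASP and protects it from degradation. Was (ENSMUSG00000031165, chrX:8081453-8090498) measured 126 and 117 CPM with DI and 124 and 121 CPM with DMSO. Wipf1 (ENSMUSG00000075284, chr2:73429610-73529734) measured 242 and 244 CPM with DI and 240.1 and 243 CPM with DMSO. The groups overlapped for both partners. Their log2 fold changes were -0.01 (95% interval -0.15 to 0.12) for Was and 0.01 (95% interval -0.08 to 0.10) for Wipf1, with edgeR adjusted p of 0.914 and 0.887. Within the actin core the interval of Cttn therefore lay below those of Was and Wipf1, without overlap.

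Tln1 encodes talin, which binds integrin tails and links them to actin in the podosome ring, and was the most abundant of the 10 genes. It (ENSMUSG00000028465, chr4:43531519-43562691) measured 1387 and 1291 CPM with DI and 1388 and 1364 CPM with DMSO. The DI libraries differed from each other by more than the DMSO libraries did, and the groups overlapped. The log2 fold change was -0.04 (95% interval -0.14 to 0.07, edgeR adjusted p = 0.602). On the opposite strand, Creb3 shares 3.67% of the exon bases of Tln1, and whether counting used strand is not given in the sources used here.

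Pxn encodes paxillin, the adaptor that gathers kinases in the ring. It (ENSMUSG00000029528, chr5:115506676-115555987) measured 100.6 and 130.4 CPM with DI and 109 and 110.5 CPM with DMSO. The 2 DI libraries lay on either side of the DMSO libraries and differed from each other by 0.37 on the log2 scale, against 0.02 between the DMSO libraries. The log2 fold change was 0.07 (SE 0.12, 95% interval -0.21 to 0.36, edgeR adjusted p = 0.724), so the data set no direction for Pxn. The sign of Pxn turned without DI replicate 2 (-0.12), and those of Pxn, Vav3 and Wipf1 turned when libraries were scaled by their totals alone (-0.03, -0.08 and -0.09).

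Sh3pxd2a encodes Tks5, a scaffold that Src phosphorylates and that brings together actin regulators and matrix proteases at podosomes. The gene (ENSMUSG00000053617, chr19:47260174-47464411) measured 32.6 and 30.0 CPM with DI and 47.0 and 43.2 CPM with DMSO. Both DI libraries were below both DMSO libraries, on counts of 559 and 563 against 876 and 719. The log2 fold change was -0.53 (SE 0.079, 95% interval -0.72 to -0.33, edgeR adjusted p = 0.0101). Without DMSO replicate 1 it was -0.46 and the adjusted p of edgeR rose to 0.0501, just past the threshold.

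On the length-scaled FPKM scale, which allows genes to be compared with each other, the levels in DMSO libraries ran from 125 ± 1.61 FPKM (SD, n = 2) for Tln1 to 1.58 ± 0.117 FPKM for Cttn. Between them came Was at 48.8 ± 0.870, Ptk2b at 31.7 ± 0.961, Wipf1 at 27.0 ± 0.195, Dock5 at 16.6 ± 0.138, Pxn at 8.08 ± 0.0802, Vav3 at 7.74 ± 0.315, Src at 6.53 ± 0.486 and Sh3pxd2a at 4.46 ± 0.272 FPKM. In the DMSO libraries each gene lay above the next in both libraries, although Pxn was only 1.04 times Vav3. The order of the means was the same with DI, where Dock5 stood at 9.17 ± 0.320, Src at 4.17 ± 0.150, Sh3pxd2a at 2.88 ± 0.156 and Cttn at 0.931 ± 0.0851 FPKM. There Pxn (6.88 and 8.96 FPKM) and Vav3 (7.61 and 7.05 FPKM) overlapped, so their order is not set.

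The 4 genes that fell include the 3 with the lowest FPKM, and Dock5 is the exception at the fifth place of 10. The order depends on the lengths behind the FPKM. The length that FPKM, count and total imply is 10.2 kb for Src and 14.1 kb for Pxn, against longest coding transcripts of 3.91 and 3.71 kb in GENCODE M21. With those transcripts as lengths, a choice made after the data were seen, the order became Tln1, Ptk2b, Was, Wipf1, Pxn, Dock5, Src, Vav3, Sh3pxd2a and Cttn. Changes between groups do not depend on the length.

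Most of the 10 genes have a relative that can stand in the same complex, and the FPKM ratio of each gene to its relative within a library shows whether the pair changed unequally. The relatives were listed after the data were seen, and the ratios carry no test. Dock2, the main haematopoietic member of the Dock family, stood at 41.8 FPKM in DMSO and 41.3 FPKM in DI libraries, and its log2 fold change was 0.08 (edgeR adjusted p = 0.170). FPKM is scaled to library totals without TMM factors, so the 2 measures can differ in sign. The ratio of Dock5 to Dock2 was 0.215 and 0.229 with DI and 0.394 and 0.402 with DMSO. For Dock1, with a log2 fold change of 0.21 (edgeR adjusted p = 0.0861), the ratio was 0.955 and 1.01 with DI and 1.97 and 1.87 with DMSO. Dock5 thus stood above Dock1 in both DMSO libraries and close to it in both DI libraries on this scale.

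The Src family kinase genes Lyn, Fyn and Fgr had log2 fold changes of 0.02, -0.03 and 0.10 that did not pass edgeR's test. The ratio of Src to Fgr, a close relative found at 8.42 FPKM in DMSO libraries, was 0.522 and 0.473 with DI and 0.782 and 0.769 with DMSO. The ratio to Lyn was 0.158 and 0.144 with DI and 0.232 and 0.214 with DMSO, so on this scale Src was the less abundant kinase in every library. A transcript of Gm11787 matches 30.3% of the longest Lyn transcript at up to 98.8% identity, so the value of Lyn is uncertain.

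Cortactin has a haematopoietic relative, HS1, encoded by Hcls1, which stood at 129 FPKM in DMSO and 140 FPKM in DI libraries. Hcls1 rose by 0.23 on the log2 scale (edgeR adjusted p = 0.0156), while Cttn fell. The call of Hcls1 was lost without DI replicate 2 (edgeR adjusted p = 0.0516) or DMSO replicate 2 (0.0565). The ratio of Cttn to Hcls1 was 0.00713 and 0.00616 with DI and 0.0114 and 0.0132 with DMSO, so Cttn was a small fraction of the pair in every library. Sh3pxd2b, which encodes Tks4, had a log2 fold change of 0.08 (edgeR adjusted p = 0.253), and the ratio of Sh3pxd2a to it was 0.108 and 0.103 with DI and 0.169 and 0.152 with DMSO.

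Lpxn, which encodes the paxillin relative leupaxin of osteoclast podosomes, fell by 0.21 on the log2 scale (edgeR adjusted p = 0.0198). On the FPKM scale Lpxn was far more abundant than Pxn, at 174 FPKM in DMSO and 139.7 FPKM in DI libraries. The size of that gap depends on the lengths behind the FPKM. In CPM, which is not scaled to length, the means in DMSO libraries were 281 for Lpxn and 110 for Pxn. The call of Lpxn was lost without DI replicate 2 (edgeR adjusted p = 0.0886), DMSO replicate 1 (0.0582) or DMSO replicate 2 (0.0796). The ratio of Pxn to Lpxn was 0.0486 and 0.0650 with DI and 0.0466 and 0.0464 with DMSO. For the other members and their relatives the ratios of the 2 groups overlapped. These pairs were Vav3 with Vav1 and Vav2, Ptk2b with Ptk2, Was with Wasl, Wipf1 with Wipf2 and Tln1 with Tln2.

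**Figure D3:**
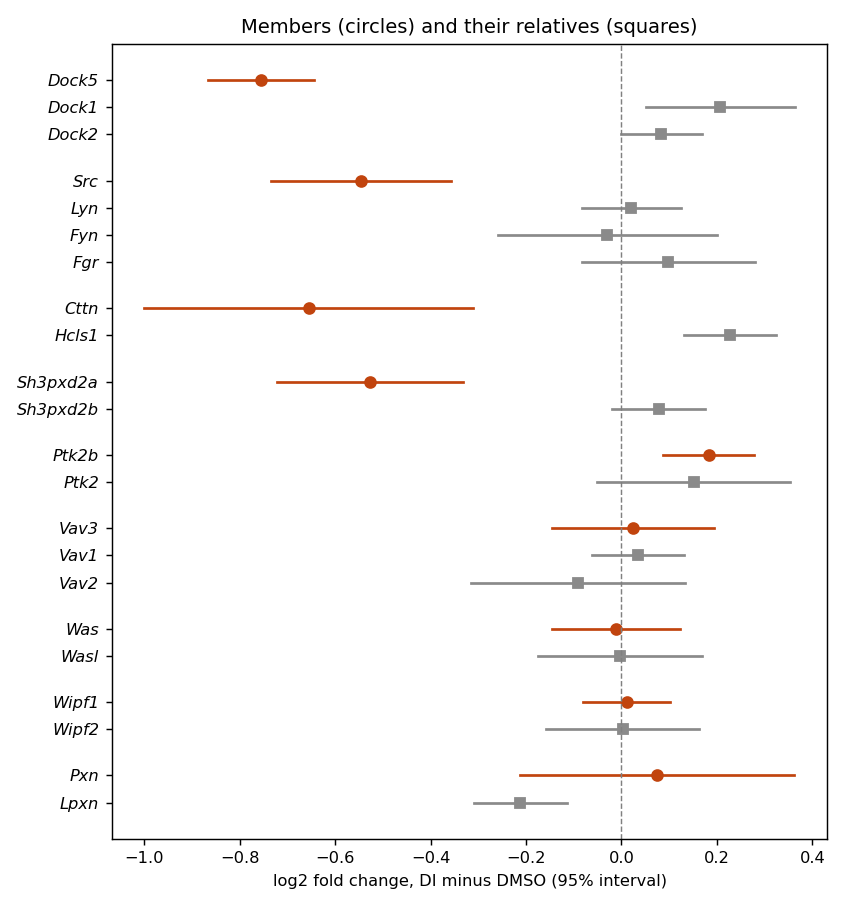
Log2 fold change, DI minus DMSO, with 95% intervals, for 9 of the 10 genes (circles) and their relatives (squares); Tln1 and Tln2 are left out because the interval of Tln2 was far wider. Dock5, Src, Cttn and Sh3pxd2a lie at -0.76 to -0.53, while the relatives of these 4 genes that are shown lie at -0.03 (Fyn) to 0.23 (Hcls1).

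A list of 86 other podosome genes in 7 role groups places the 10 genes in their setting. All 86 were tested and 20 were called, 12 higher and 8 lower, which is 23.3% against 14.8% of all tested genes. Their median log2 fold change was 0.03. Of the Arp2/3 complex, 1 of 9 genes was called. Among 15 core regulators 3 were higher and among 15 ring adhesion proteins 1 was higher and 2 were lower.

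The integrin and CD44 group had 5 of 7 genes called, in both directions. Itgav, the alpha subunit of the vitronectin receptor of osteoclasts, measured 74.2 and 70.8 CPM with DI and 105 and 109 CPM with DMSO. Itgb3, its beta subunit, measured 40.1 and 36.2 CPM with DI and 25.9 and 26.1 CPM with DMSO. The 2 subunits of that receptor thus moved in opposite directions, and the groups did not overlap for either. Itgav fell by 0.57 on the log2 scale (edgeR adjusted p = 0.00275) and Itgb3 rose by 0.56 (edgeR adjusted p = 0.00815). The macrophage integrin genes Itgb2 and Itgam rose by 0.50 and 0.57 (edgeR adjusted p = 0.00190 and 0.00186). The predicted gene Gm49368 covers 68.7% of the exon bases of Itgam, so the value of Itgam is uncertain. Cd44, the hyaluronan receptor found over the podosome core, fell by 0.20 (edgeR adjusted p = 0.0242), a call lost without DI replicate 1 (0.0547), DI replicate 2 (0.0882) or DMSO replicate 2 (0.0718).

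Among motors, tropomyosins and trafficking genes, 3 of 13 were higher and 3 were lower. Mmp14, the membrane-anchored matrix protease delivered to podosomes, measured 27.8 and 26.2 CPM with DI and 53.1 and 46.5 CPM with DMSO, and fell by 0.88 on the log2 scale (edgeR adjusted p = 0.00297). Myo1e and Myo10, which encode unconventional myosins, fell by 0.24 and 0.49 (edgeR adjusted p = 0.0115 and 0.0143). Tpm4, a tropomyosin of the osteoclast cytoskeleton, rose by 0.33 (edgeR adjusted p = 0.00314), although the predicted gene Gm7809 matches 34.8% of its longest transcript. Plekhm1, which encodes a lysosomal trafficking adaptor needed for the ruffled border, rose by 0.26 and Myh9, the heavy chain of non-muscle myosin, by 0.22 (edgeR adjusted p = 0.0133 and 0.0143). Without DMSO replicate 2 the calls of Myo10 (edgeR adjusted p = 0.0612) and Plekhm1 (0.0591) were lost, as was that of Myh9 without DI replicate 1 (0.0522).

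Of the core and ring genes, Nck2 had the greatest change among those called. Nck2, which encodes an adaptor that links tyrosine kinase signals to WASP proteins, measured 30.1 and 31.5 CPM with DI and 19.2 and 17.4 CPM with DMSO. It rose by 0.75 on the log2 scale (edgeR adjusted p = 0.00491), with the limit that the predicted gene Gm6226 matches 41.2% of its longest transcript at up to 97.1% identity. Fermt3, which encodes the integrin activator kindlin-3 of blood cells, rose by 0.28 (edgeR adjusted p = 0.00900). The calls of Nck2, Fermt3, Itgav, Itgb3, Itgb2, Itgam, Mmp14, Myo1e and Tpm4 held without each library in turn.

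The remaining called genes changed by 0.25 or less on the log2 scale. Their calls did not hold in every fit with a library left out, where a group kept a single library. Vasp, which promotes actin filament growth, fell by 0.25 on the log2 scale (edgeR adjusted p = 0.0201), and without DI replicate 2, DMSO replicate 1 or DMSO replicate 2 the adjusted p was 0.0789, 0.0729 or 0.0869. Arpc2 of the Arp2/3 complex rose by 0.14 and the adaptor gene Pstpip1 by 0.23, with edgeR adjusted p of 0.0442 and 0.0416. Myo9b, which encodes an unconventional myosin, rose by 0.18 (edgeR adjusted p = 0.0442). For these 3 genes the call was lost whichever of the 4 libraries was left out, with adjusted p of 0.0720 to 0.166 for Arpc2, 0.0523 to 0.156 for Pstpip1 and 0.0585 to 0.154 for Myo9b.

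**Figure D4:**
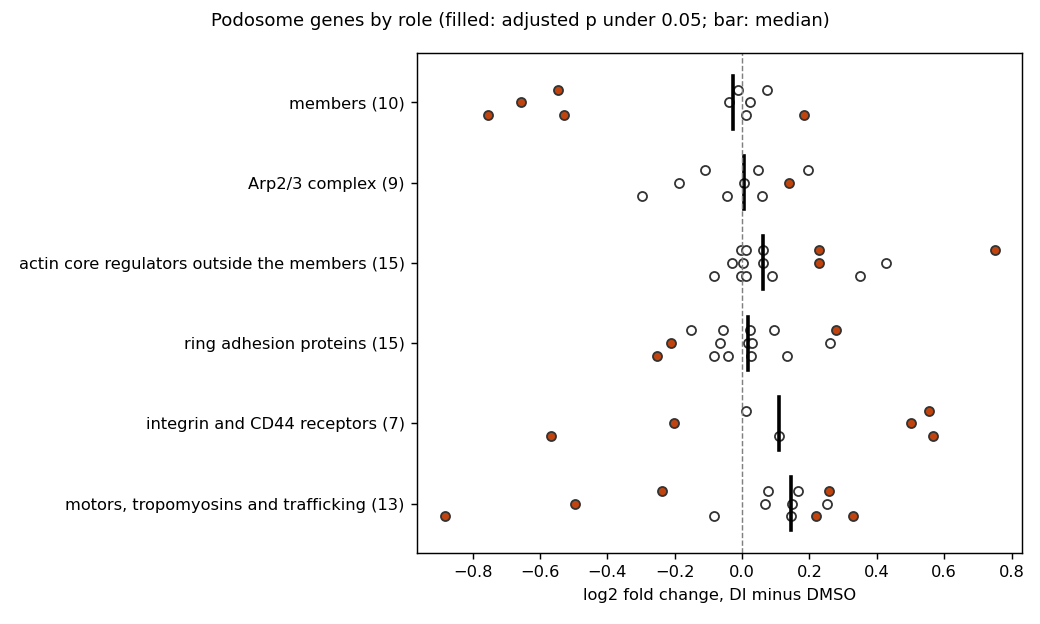
Log2 fold change, DI minus DMSO, of the 10 genes and of other podosome genes in 5 of the role groups; each point is a gene, filled where the adjusted p of edgeR was under 0.05, and the bar is the group's median. Most points of the Arp2/3, core and ring groups lie near 0, and the integrin group has called genes on both sides, from -0.57 to 0.57.

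In the KEGG pathways that the authors attached to their table, Pxn, Src, Vav3 and Was belong to regulation of the actin cytoskeleton, and Pxn, Src, Tln1 and Vav3 to focal adhesion. Of 149 tested genes of the actin pathway, 15 were higher and 14 were lower, in all 19.5%, with a median log2 fold change of 0.03. Of 149 tested genes of focal adhesion, 15 were higher and 18 were lower, in all 22.1%, with a median of 0.05. None of the 10 genes is listed in osteoclast differentiation, where 36 of 106 tested genes (34.0%) were called, 15 higher and 21 lower.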

How the data were processed

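RNA was measured in 4 libraries, 2 of BMMs with RANKL and DI and 2 with RANKL and DMSO, grouped by their labels. The authors deposited raw counts of paired-end reads per gene, without normalization, and FPKM values, which are counts scaled to gene length and library total. A second table repeats both with KEGG pathways; its counts and FPKM equal those of the first. GRCm38 and mm10 are named in the submitters' processing notes, and the aligner, counter and gene lengths are not given in the sources used here. Of 34745 genes, 16455 had no count.

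Counts were tested in R 4.3.3 with edgeR 4.0.16 (TMM factors, filterByExpr, quasi-likelihood fit with the group as its only term, Benjamini-Hochberg adjustment over 12590 genes, threshold 0.05). CPM used TMM-scaled totals. With 2 libraries a group, an exact permutation of a single value cannot pass the threshold. The common biological coefficient of variation was 0.0905, and libraries of a group differed by more than sampling noise (chi-square of 7.57 and 7.74 per degree of freedom). The procedure was tested on simulated data, in 4 draws with 200 changed genes each, fewer than were called in the data. It recovered 84.5% of changes of 1 and 35.25% of changes of 0.5 on the log2 scale. On average 4.91% of its calls were false. The 10 genes and the lists were chosen with earlier results of these data known. Named genes were the 10 members, up to 3 called genes in each direction with the smallest adjusted p of each role group, and the macrophage, osteoclast and leading other cell type markers; relatives were added after the data were seen, and some items are not reported here. Gene positions follow the deposited table. Exons and copies came from GENCODE M21 with BLAST+ 2.17.0 at 95% identity or more, and promoters from RefSeq. Alternatives were 3 other scalings, 2 other filters, DESeq2 1.42.0, limma-voom (limma 3.58.1), edgeR's exact test, a replicate block and leaving out each library.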

Additional observations from a re-analysis of the deposited data

How the results depend on the processing

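Each group had 2 libraries, and for the genes that did not pass the test the data leave any change within the interval given possible. Cttn, at 107 to 170 counts, had the widest interval of the 10 genes. Dock5 and Src were called under all 13 alternatives, Sh3pxd2a under 12, Cttn under 8 and Ptk2b under 7. Scaling by totals alone gave 548 genes higher and 1932 lower, against 899 and 969. Leaving out each library in turn gave 1087 to 1394 called genes (1120 without DMSO replicate 1 and 1087 without DMSO replicate 2, against 1868), 3 to 4 of the 10 genes called, 2 to 4 lower and 0 to 1 higher, 13 to 19 of the 86 other podosome genes, and 19 to 25 genes of the KEGG actin pathway. None of the 10 genes was called higher with scaling by totals alone or with edgeR's exact test, which also called 10 of the 86 other genes.

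Signs turned only for genes that were not called. Scaling by totals alone gave -0.0284 for Pxn, -0.0792 for Vav3 and -0.0929 for Wipf1. Leaving out a library gave -0.122 to 0.251 for Pxn, -0.0338 to 0.0853 for Vav3, -0.0893 to 0.0145 for Tln1 and -0.0682 to 0.0468 for Was. The cause was not tested. For the 20 other podosome genes called, no sign turned, and 208 values stayed past the threshold while 52 did not.

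Replicate numbers recur in both groups, and the differences between replicates 1 and 2 correlated by -0.03 between the groups over all tested genes. This value cannot show whether libraries with the same number share a mouse, culture or preparation, and the labels do not say. With a replicate block 1389 genes were called, among them 3 of the 10 genes (3 lower, 0 higher); Cttn and Ptk2b had adjusted p of 0.0676 and 0.0523 in edgeR. It called 19 of the 86 other podosome genes.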

Other observations

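Outside the podosome genes, markers of other blood cells were low or absent, apart from Pf4. The summed level of 5 B cell markers was at most 0.600 CPM, that of 6 T and NK cell markers at most 0.699 CPM and that of 6 erythroid markers at most 0.0583 CPM. The 6 neutrophil markers summed to 2.88 to 3.79 CPM with DI and 3.78 to 4.35 CPM with DMSO, led by Ngp, and Ly6g had no count. Of 5 megakaryocyte and platelet markers only Pf4, which encodes a platelet chemokine, passed the filter on low counts. It measured 57.2 and 57.4 CPM with DI and 32.2 and 32.5 CPM with DMSO and rose by 0.83 on the log2 scale (edgeR adjusted p = 0.00129). Gp9 had no count, and Ppbp, Itga2b and Gp1bb lay at 0.300 CPM at most. Which cells gave the Pf4 RNA was not tested.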
